A study of Mus musculus with 12 samples.

Results

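The genes described here are 33 markers of Kupffer cells and other macrophages, listed by gene symbol, with earlier results of these data known. Each of 12 livers, from female mice of the inbred C57BL/6 strain, was read on its own Affymetrix array. Of the 33 genes, 32 had a probe set, among 12393 genes with one, and all 32 passed the signal filter, among 7217 genes tested. For Timd4, a receptor for dying cells on resident macrophages, no signal was analysed here. In the first group, 3 mice received 0.9 mg testosterone with 100 µl of sesame oil and were examined at the end of treatment. In the second, 3 mice received 100 µl of the oil alone, the vehicle, and were examined at the same time. The last 2 groups, of 3 mice each, received testosterone or vehicle in the same way and were examined after a withdrawal period. All mice, vehicle mice included, were injected under the skin for 3 weeks, 2 times a week. The sample labels give the withdrawal as 12 weeks and the series' design text gives 3 weeks, so its length is not settled. The sources used here give no ages. The labels state the question as what testosterone does to gene expression in female liver over a short and a long term.

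Kupffer cells are the resident macrophages of the liver. They line the sinusoids and take up bacteria, immune complexes, dying cells and old red blood cells through scavenger, complement and Fc receptors, digest them in lysosomes and recover iron from heme. In the mouse, Clec4f, Vsig4 and Cd5l mark them, their survival depends on the CSF1 receptor, and the transcription factor PU.1 sets up the macrophage programme. Whole liver was measured, so fewer macrophages and less RNA per macrophage cannot be told apart in any result below.

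Values are array signals in arbitrary intensity units, and a level is only compared with the same gene's level in other mice. Each log2 change is given ± its standard error in the limma fit of all 7217 genes, and a gene is called where its Benjamini-Hochberg adjusted p is under 0.05. Array medians lay between 20.03 and 22.4, and the pairwise r across probe sets was 0.979 to 0.989 within groups. The ratio of the 3' to the 5' signal of beta-actin, which is higher where RNA is shorter or less completely copied, separated the treatments at the end. It averaged 2.11 ± 0.0769 in testosterone mice and 1.52 ± 0.108 in vehicle mice (SD, n = 3 each), with a two-sided exact permutation p of 0.1, the smallest that 3 mice against 3 allow. After withdrawal it averaged 1.62 ± 0.179 in testosterone mice and 1.77 ± 0.154 in vehicle mice (SD, n = 3 each, exact permutation p = 0.2). At the end, the same ratio for pyruvate carboxylase, a second control, averaged 18.8 ± 2.64 with testosterone and 6.06 ± 1.35 with vehicle (SD, n = 3 each). Vehicle mouse 1 of the end of treatment had the highest signal of all 12 mice for 29 of the 32 markers. Vehicle mouse 2 of the same group had it for the other 3, Cd14, Tyrobp and Fcgr2b. The 3 vehicle mice of the end were graded: the mean level of the markers, each standardised over the 12 mice, was 1.80, 1.11 and 0.63 in mice 1, 2 and 3. The comparisons that use mouse 1 are also given without it, after the values by gene. Mouse 1 was set apart because it reads highest for these same markers. Smaller changes from the vehicle mice of the end without it were thus largely fixed in advance.

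**Figure D1:**
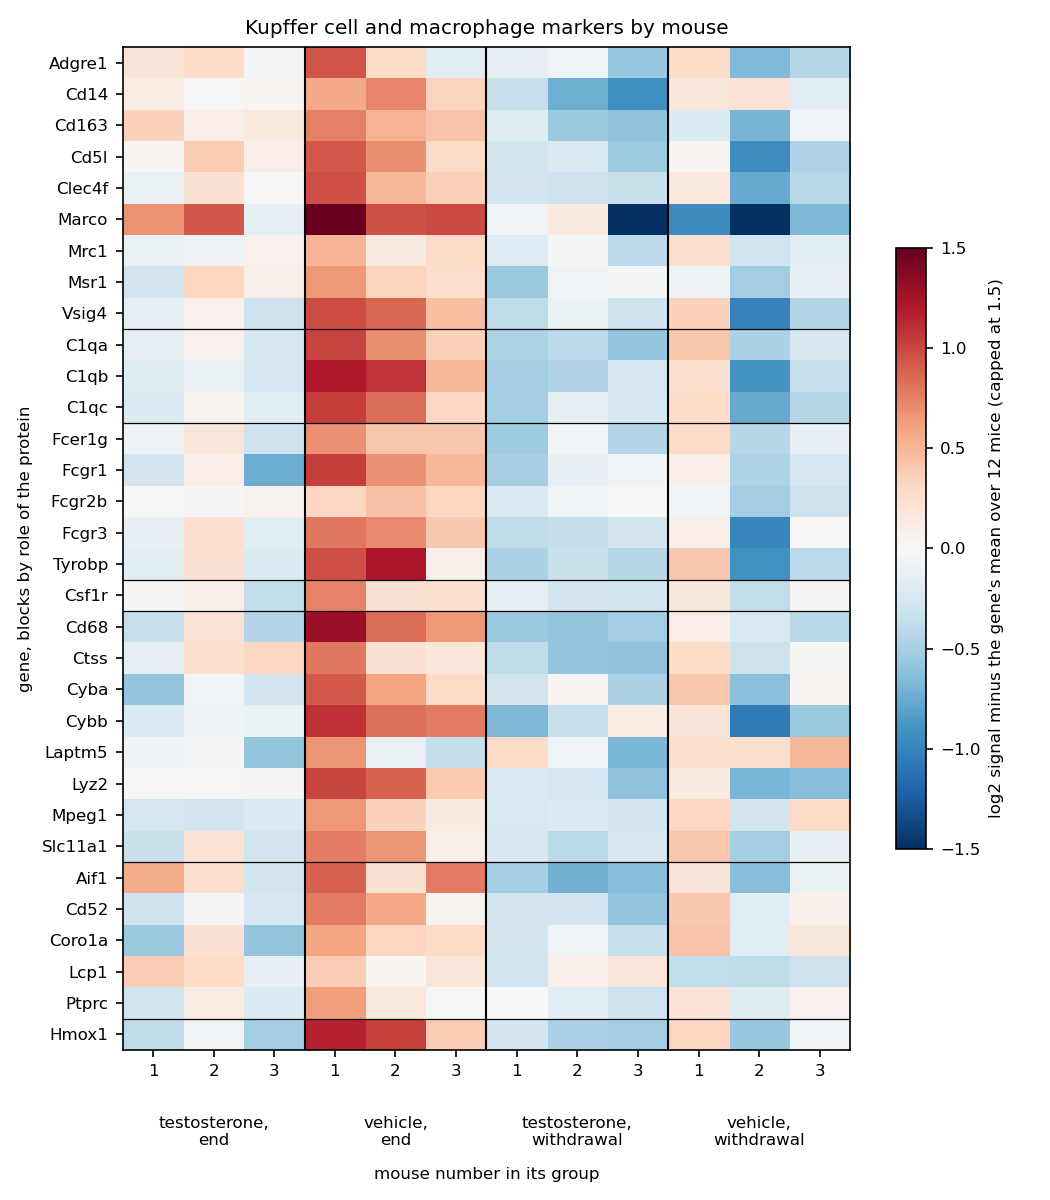
Log2 signal of the 32 measured markers minus each gene's mean over 12 mice, by mouse (columns, 3 per group) and gene (rows, in blocks by role). The first vehicle mouse at the end of treatment holds the highest signal for 29 of 32 genes, and vehicle mouse 2 after withdrawal the lowest for 17.

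Of 32 markers 14 were lower in testosterone livers at the end, 0 were higher and 18 were not called, where 8.01% of all 7217 genes were called lower and 9.42% higher. The 14 were Vsig4, the 3 C1q chains, Fcgr1, Csf1r, Cd68, Cyba, Cybb, Lyz2, Mpeg1, Cd52, Coro1a and Hmox1. The median log2 change of the 32 was -0.63, beside 0.044 for all genes tested, and all 32 estimates lay below 0, all against the same 3 vehicle mice. Every testosterone mouse lay below every vehicle mouse for 22 of the 32, as it did for 15.1% of all genes. Fcgr1, which is among these 22, passed the signal filter only through its 3 vehicle arrays of this time. Without it 13 of 31 markers were called lower. The count was 3 without vehicle mouse 1 and 0 by limma with the actin ratio in the fit, with 1 at an unadjusted p under 0.05.

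Of the called genes, Vsig4, Fcgr1 and C1qb carry a PU-box core, the letters GAGGAA that lie at the centre of PU.1 sites, within 100 bases before their annotated start. Their upstream bases from RefSeq's GRCm38.p6 tables are shown on the strand of the gene, 5′ to 3′, with the start just after the last base and the core, or its reverse complement, in capitals. Vsig4 lies on the minus strand at chrX:96293439-96293538, Fcgr1 on the minus strand at chr3:96293970-96294069 and C1qb on the minus strand at chr4:136886201-136886300.
Vsig4: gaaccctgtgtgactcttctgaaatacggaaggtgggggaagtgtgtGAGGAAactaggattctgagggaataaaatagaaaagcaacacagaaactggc
Fcgr1: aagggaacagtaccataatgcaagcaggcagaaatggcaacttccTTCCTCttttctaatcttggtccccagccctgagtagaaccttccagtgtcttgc
C1qb: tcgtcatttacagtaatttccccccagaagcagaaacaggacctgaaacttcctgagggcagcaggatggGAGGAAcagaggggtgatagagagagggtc
The core begins 53 bases before the start in Vsig4, 55 before it in Fcgr1, where it is reversed, and 30 before it in C1qb. Over 250 bases before the start and on both strands, the core was found in 14 of the 25 markers in the table (56%), which include Timd4, and in 6252 of 27025 genes (23.1%). Among the 10 markers in the table that were called lower at the end, 5 carried it (50%). Markers not called at the end also carry the core within 100 bases. It begins at -6 in Fcgr3, -7 in Aif1, -35 in Mrc1, -38 in Laptm5 and -66 in Cd5l. A link between the core and the calls was not tested. These matches describe letters only and are not measured binding sites.

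Among the receptors by which macrophages recognise and take up particles, 1 of 9 measured was called. Vsig4, the complement receptor of Kupffer cells that holds bacteria coated with C3 fragments, read 315, 360.0 and 275 in testosterone mice and 680.0, 624 and 469 in vehicle mice. The highest testosterone mouse lay below the lowest vehicle mouse, and Vsig4 fell by 0.89 ± 0.24 on the log2 scale (adjusted p = 0.0214, limma). Clec4f, a galactose-binding lectin found in mouse on Kupffer cells, read 297, 372 and 318 in testosterone mice and 621, 448 and 409 in vehicle mice. These mice did not overlap either, but Clec4f was not called, at -0.56 ± 0.19 (adjusted p = 0.0561, limma). Cd5l, a protein that macrophages secrete and that binds microbial surfaces and lipid enzymes, read 522, 664 and 550.3 in testosterone mice and 966, 832 and 625 in vehicle mice, where the groups overlapped. Marco, a scavenger receptor for bacteria, read 59.2, 70.9 and 33.7 in testosterone mice and 193, 71.9 and 73.9 in vehicle mice. Vehicle mice 2 and 3 lay close together and just above the highest testosterone mouse, while vehicle mouse 1 was far above both. Its estimate of -0.95 had the largest standard error of the list, 0.54, and became -0.48 without mouse 1.

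Cd163, the receptor for hemoglobin bound to haptoglobin, read 79.8, 67.4 and 70.3 in testosterone mice and 106, 90.3 and 84.4 in vehicle mice, without overlap. Cd14, the co-receptor for bacterial lipopolysaccharide, read 24.998, 23.2 and 23.7 in testosterone mice and 34.3, 38.5 and 29.3 in vehicle mice, also without overlap. Neither was called, with log2 changes of -0.37 ± 0.17 and -0.50 ± 0.21. Msr1, the class A scavenger receptor for modified lipoproteins, read 45.5, 68.6 and 58.7 in testosterone mice and 86.4, 69.4 and 66.2 in vehicle mice. Its groups overlapped at 1 mouse on each side, and it was not called (-0.37 ± 0.19). A dimmer probe set of Msr1 was called in a fit of every probe set (-0.94, adjusted p = 0.0208, limma). Mrc1, the mannose receptor, ranged over 194 to 217 in testosterone mice and 229 to 298 in vehicle mice, and Adgre1, the F4/80 antigen, over 93.7 to 115 in testosterone mice and 84.9 to 182 in vehicle mice. Neither was called, and Adgre1, the usual marker of mouse macrophages, had the estimate nearest to 0 of the 32 after Lcp1 (-0.21 ± 0.26).

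All 3 chains of C1q, the recognition molecule of the classical complement pathway, which macrophages make, fell. C1qa read 217, 251 and 201 in testosterone mice and 486, 390.2 and 307 in vehicle mice, C1qb read 218, 231 and 206 in testosterone mice and 569, 523 and 349.9 in vehicle mice, and C1qc read 224, 271 and 231 in testosterone mice and 534, 465 and 322 in vehicle mice. No testosterone mouse reached any vehicle mouse for any chain. The testosterone mice lay close together, with an SD of 12.7 for C1qb around a mean of 219, whereas the vehicle mice had an SD of 116 around 481. C1qa fell by 0.81 ± 0.20 (adjusted p = 0.0125), C1qb by 1.11 ± 0.23 (adjusted p = 0.0043) and C1qc by 0.84 ± 0.22 on the log2 scale (adjusted p = 0.018, limma). The probe sets of C1qb disagreed: a dimmer one was also called (-0.65, adjusted p = 0.0313), but another read -0.067 (adjusted p = 0.842, limma), so C1qb rests on which probe set is read.

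Among the Fc receptors, which bind antibody-coated particles, and their signalling adaptors, 1 of 5 was called, Fcgr1. Fcgr1 passed the signal filter only through the 3 vehicle arrays of this time, where it is high, so its call is no separate support. Fcgr1, the high-affinity receptor for IgG, read 15.9, 20.7 and 11.5 in testosterone mice and 39.6, 31.1 and 27.4 in vehicle mice and fell by 1.05 ± 0.26 on the log2 scale (adjusted p = 0.0138, limma). It is a dim gene, above the array median on 3 of 12 arrays. Fcgr3, an activating low-affinity IgG receptor, read 35.6, 46.4 and 34.9 in testosterone mice and 66.98, 63.7 and 51.5 in vehicle mice, and Fcer1g, the gamma chain through which these receptors signal, read 55.5, 66.1 and 47.3 in testosterone mice and 94.4, 77.5 and 77.7 in vehicle mice. Neither gene's groups overlapped, and neither was called (-0.64 ± 0.24 and -0.57 ± 0.19). Tyrobp, the adaptor DAP12 of several myeloid receptors, read 143, 189 and 140.3 in testosterone mice and 315, 377 and 169 in vehicle mice. Vehicle mouse 3 fell inside the testosterone range, and Tyrobp was not called (-0.80 ± 0.29). Fcgr2b, the inhibitory IgG receptor, read 406, 408 and 419 in testosterone mice and 503, 548 and 504 in vehicle mice. The groups were far apart for their spread, with SDs of 6.89 in testosterone mice and 25.7 in vehicle mice, and the estimate of -0.33 ± 0.11 had an adjusted p of 0.0533 (limma). That probe set is of a class that can bind more than 1 transcript, and 2 other probe sets of Fcgr2b were called lower in a fit of every probe set (-0.84, adjusted p = 0.00291, and -0.75, adjusted p = 0.0242, limma).

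Csf1r, the receptor on which macrophage survival depends, fell by 0.51 ± 0.16 on the log2 scale (adjusted p = 0.0391, limma). It read 574, 623 and 452 in testosterone mice and 979, 686 and 693 in vehicle mice. Vehicle mice 2 and 3 were close to each other and to the highest testosterone mouse, and without vehicle mouse 1 the change was -0.34 and not called (adjusted p = 0.166, limma). A second, dimmer probe set of Csf1r was also called (-0.77, adjusted p = 0.0275, limma) and another was not (-0.45).

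Of 8 genes for digestion in the lysosome and for the phagocyte oxidase, 5 fell. Cd68, a heavily glycosylated protein of macrophage lysosomes, read 36.1, 53.3 and 33.7 in testosterone mice and 113, 82.1 and 72.2 in vehicle mice, 2.18-fold lower with testosterone (-1.12 ± 0.20, adjusted p = 0.00181, limma). Lyz2, the lysozyme of myeloid cells, read 335, 333 and 329 in testosterone mice and 674, 618 and 438 in vehicle mice, and Mpeg1, the pore-forming perforin-2 of phagocytes, read 212, 209.6 and 221 in testosterone mice and 401, 323 and 279.9 in vehicle mice. In both genes the testosterone mice were almost alike, with SDs of 3.01 and 5.87. Lyz2 fell by 0.77 ± 0.20 and Mpeg1 by 0.63 ± 0.15 on the log2 scale (adjusted p = 0.015 and 0.0111, limma). Lyz2 has a near copy, Lyz1, and signal shared between them was not tested.

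Cybb and Cyba encode the membrane subunits of the oxidase that makes superoxide in phagocytes, and both fell. Cybb read 25.2, 27.7 and 27.3 in testosterone mice and 62.3, 51.6 and 49.9 in vehicle mice. Cyba read 44.6, 64.9 and 54.8 in testosterone mice and 127, 101 and 82.6 in vehicle mice. No mice overlapped in either, and the log2 changes were -1.03 ± 0.27 for Cybb and -0.91 ± 0.24 for Cyba (adjusted p = 0.0179 and 0.016, limma). Slc11a1, the phagosomal metal transporter Nramp1, ranged over 36.998 to 54.4 in testosterone mice and 49.2 to 79.8 in vehicle mice and was not called (-0.63 ± 0.23). Ctss, the cysteine protease that trims the invariant chain of MHC class II, read 250.2, 326 and 342 in testosterone mice and 479.8, 325 and 314 in vehicle mice. Vehicle mice 2 and 3 lay within the testosterone range, and Ctss was not called (-0.27 ± 0.18). Laptm5, a lysosomal membrane protein of blood cells, ranged over 27.2 to 40.7 in testosterone mice and 31.9 to 64.9 in vehicle mice (-0.29 ± 0.27), and a second probe set read -0.031. Both missed the call, and the probe set used for Laptm5 is of a class that can bind more than 1 transcript.

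Of 5 genes shared by most leukocytes, 2 fell. Cd52, a small surface glycoprotein, read 96.3, 118 and 100.3 in testosterone mice and 205, 177 and 124 in vehicle mice (-0.66 ± 0.18, adjusted p = 0.0212, limma). Coro1a, which binds actin around phagosomes, read 22.4, 38.7 and 21.9 in testosterone mice and 49.7, 41.2 and 40.2 in vehicle mice (-0.71 ± 0.22, adjusted p = 0.0419, limma). Testosterone mouse 2 lay just below the vehicle range of Coro1a and far above the other testosterone mice, and a dimmer probe set was not called (-0.45). Aif1, the calcium-binding protein Iba1, read 53.2, 43.2 and 29.5 in testosterone mice and 66.5, 42.3 and 61.6 in vehicle mice, and the groups overlapped. Lcp1, the actin bundler L-plastin, read 413, 394 and 294 in testosterone mice and 416, 327 and 363 in vehicle mice, with an estimate of -0.016 ± 0.14, the nearest to 0 of the 32. Ptprc, the CD45 phosphatase of all leukocytes, ranged over 76.5 to 102 in testosterone mice and 94.5 to 146 in vehicle mice (-0.39 ± 0.17). None of the last 3 was called.

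Hmox1, the enzyme that opens the heme ring when Kupffer cells break down red cells, had the lowest estimate of the list. It read 36.4, 45.9 and 33.3 in testosterone mice and 106, 97.1 and 61.9 in vehicle mice, 2.25-fold lower with testosterone (-1.17 ± 0.23, adjusted p = 0.00344, limma). The highest testosterone mouse lay below the lowest vehicle mouse. Hepatocytes can also make Hmox1 under stress, and the parts of macrophages and hepatocytes in its signal cannot be told apart here.

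**Figure D2:**
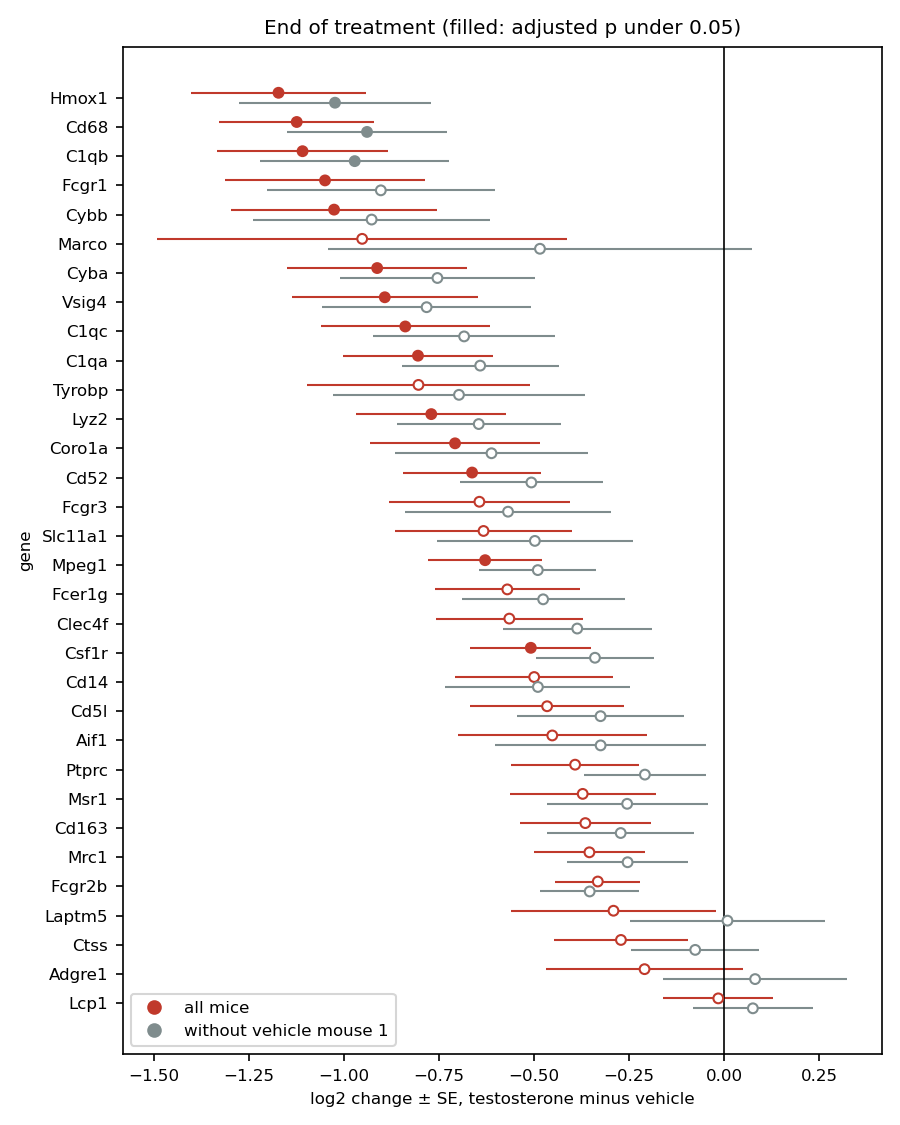
Log2 change of each marker at the end of treatment, testosterone minus vehicle (points, bars are standard errors), with all mice in red and without vehicle mouse 1 in grey. Filled points have a limma adjusted p under 0.05: 14 with all mice, and 3 (C1qb, Cd68 and Hmox1) without that mouse.

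Without vehicle mouse 1, 3 of the 32 markers were called at the end, where 5.07% of all genes were called lower, and the median change was -0.49. They were C1qb (-0.97, adjusted p = 0.0228), Cd68 (-0.94, adjusted p = 0.0118) and Hmox1 (-1.02, adjusted p = 0.0193, limma), and 29 of the 32 estimates stayed below 0. The 3 above 0 were Adgre1 (0.081), Lcp1 (0.075) and Laptm5 (0.0084). The other 11 genes called with all mice were not called without this one. Their changes were then -0.78 for Vsig4, -0.64 for C1qa, -0.68 for C1qc, -0.90 for Fcgr1, -0.34 for Csf1r, -0.75 for Cyba and -0.93 for Cybb. Those of Lyz2, Mpeg1, Cd52 and Coro1a were -0.65, -0.49, -0.51 and -0.61. The adjusted p-values of the 11 ran from 0.0543 for Mpeg1 to 0.166 for Csf1r (limma). Leaving out testosterone mouse 1 gave 7 calls, where 5.2% of all genes were called lower, and leaving out testosterone mouse 3 gave 8, where 6.26% were. With no filter on low signals 4 of the 32 were called, beside 3.12% of all genes. With the actin ratio in the fit, the median was -0.32, 26 of the 32 estimates lay below 0 and 1.08% of all genes were called in either direction. The ratio did not overlap between the treatments at the end, so it and treatment cannot be told apart there.

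After withdrawal most markers were not called between testosterone and vehicle mice, and the vehicle mice spread widely. Of 32 markers 1 was called lower, 0 higher and 31 were not called by limma, where 3.26% of all genes were called lower and 2.74% higher, and 5 had an unadjusted p under 0.05. The median log2 change was -0.14, beside -0.038 for all genes tested. Over the fits leaving out 1 mouse each, this median ran from -0.345 to 0.0376. With the actin ratio in the fit it was -0.24, and 28 of the 32 estimates lay below 0. In that fit 0 markers were called lower by limma, 8 had an unadjusted p under 0.05, and 3.64% of all genes were called in either direction. The called gene was Cd14, which read 18.2, 13.9 and 12.2 in testosterone mice and 26.3, 26.9 and 20.7 in vehicle mice (-0.75 ± 0.21, adjusted p = 0.0454, limma). The mice did not overlap, but the adjusted p is near the threshold and the call was lost under most other settings. All testosterone mice were below all vehicle mice for 4 markers, Cd14, Cd68, Ctss and Cd52, and above them for 1, Lcp1, as for 14.7% and 11.2% of all genes.

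The receptors showed no common direction after withdrawal. Vsig4 read 265, 321 and 279 in testosterone mice and 437, 171 and 254 in vehicle mice, Clec4f 261, 257 and 252 in testosterone mice and 356, 188 and 238 in vehicle mice, and Cd5l 415, 440.3 and 349 in testosterone mice and 524, 268 and 376 in vehicle mice. In each of these 3, the testosterone mice lay inside the range of the vehicle mice, which was wide because vehicle mouse 1 was high and mouse 2 low. Marco read 35.7, 41.1 and 10.5 in testosterone mice and 19.3, 6.82 and 23.2 in vehicle mice, with the most positive estimate of the list (0.78 ± 0.54, not called). Cd163 read 55.6, 42.7 and 41.5 in testosterone mice and 54.5, 38.8 and 60.8 in vehicle mice. Msr1 read 37.3, 52.4 and 54.2 in testosterone mice and 52.3, 38.3 and 49.9 in vehicle mice. Their estimates were -0.13 ± 0.17 and 0.028 ± 0.19. Mrc1 ranged over 159 to 204 in testosterone mice and 169.6 to 249 in vehicle mice, and Adgre1 over 63.97 to 91.5 in testosterone mice and 59.98 to 115 in vehicle mice.

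C1qa read 175, 184 and 161 in testosterone mice and 320.4, 172 and 204 in vehicle mice, C1qb 174, 181 and 207 in testosterone mice and 293, 133 and 194 in vehicle mice, and C1qc 181, 235 and 217 in testosterone mice and 314, 154 and 193 in vehicle mice. The groups overlapped for all 3 chains, and the estimates were -0.38 ± 0.20, -0.073 ± 0.23 and -0.0061 ± 0.22. Among Fc receptors, Fcgr1 read 13.7, 17.7 and 18.7 in testosterone mice and 20.6, 13.98 and 16.2 in vehicle mice, and Fcgr2b 349, 389 and 402 in testosterone mice and 393, 280.4 and 326 in vehicle mice. Fcgr3 read 29.8, 30.2 and 32.1 in testosterone mice and 41.6, 19.7 and 38.9 in vehicle mice. Each of the 3 overlapped between the groups. Fcer1g read 40.4, 56.3 and 43.2 in testosterone mice and 71.6, 43.5 and 53.6 in vehicle mice, and Tyrobp 116, 128 and 119.9 in testosterone mice and 214, 86.1 and 123 in vehicle mice. Csf1r read 529, 480.3 and 476 in testosterone mice and 656, 454 and 592 in vehicle mice (-0.18 ± 0.16). None of these was called.

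The digestive and oxidase genes were not called after withdrawal either. Cd68 read 31.3, 30.6 and 32.05 in testosterone mice and 49.1, 39.1 and 34.3 in vehicle mice (-0.37 ± 0.20), and Ctss 212, 184 and 182 in testosterone mice and 334, 221 and 280.4 in vehicle mice (-0.52 ± 0.18, adjusted p = 0.102, limma). For both, all testosterone mice lay below all vehicle mice. Lyz2 read 288, 279 and 220.1 in testosterone mice and 367, 209 and 215 in vehicle mice, and Mpeg1 219, 222 and 211 in testosterone mice and 315, 212 and 313 in vehicle mice. Cybb read 18.3, 22.9 and 31.4 in testosterone mice and 33.2, 13.9 and 19.8 in vehicle mice, and Cyba 55.1, 68.5 and 48.3 in testosterone mice and 88.5, 43.3 and 68.5 in vehicle mice. The mice overlapped in each of these 4. Slc11a1 ranged over 35.4 to 39.6 in testosterone mice and 32.8 to 62.1 in vehicle mice, and Laptm5 over 25.4 to 49.96 in testosterone mice and 48.4 to 57.5 in vehicle mice. Cd52 read 99.1, 98.4 and 79.6 in testosterone mice and 159, 108 and 126 in vehicle mice (-0.49 ± 0.18), without overlap. Lcp1 read 262, 339 and 364 in testosterone mice and 248, 246 and 258 in vehicle mice, so all testosterone mice were higher (0.34 ± 0.14, not called). Aif1 read 25.3, 21.8 and 23.2 in testosterone mice and 41.1, 23.2 and 33.5 in vehicle mice, and Ptprc ranged over 75.5 to 93.8 in testosterone mice and 83.1 to 108 in vehicle mice. Coro1a read 27.2, 31.6 and 25.99 in testosterone mice and 44.3, 29.3 and 37.1 in vehicle mice, where its used probe set was not called but a dimmer one was (-1.25, adjusted p = 0.0464, limma, every probe set fitted). Hmox1 read 39.1, 33.9 and 33.004 in testosterone mice and 59.4, 32.1 and 45.3 in vehicle mice (-0.33 ± 0.23), with overlap.

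**Figure D3:**
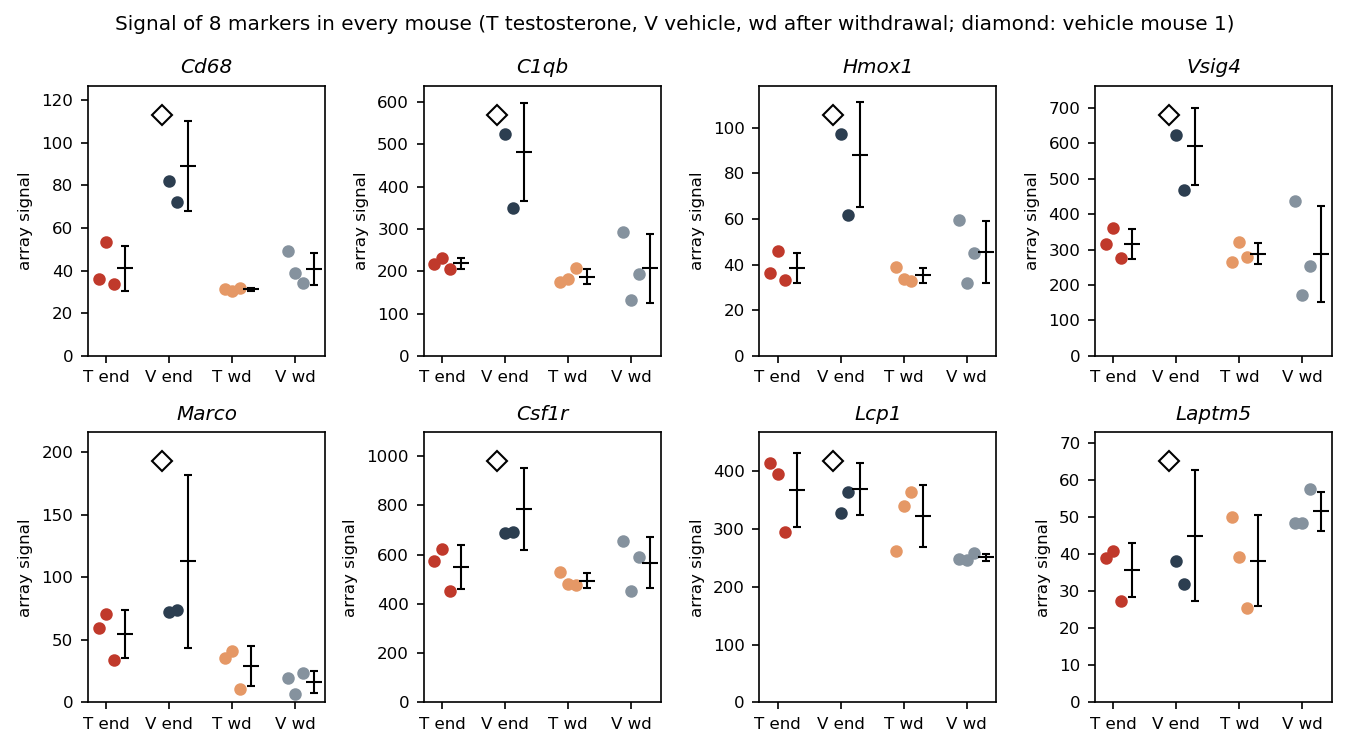
Array signal of 8 markers in every mouse (points), with the mean ± SD of each group of 3 beside them; T is testosterone, V vehicle, wd after withdrawal, and the diamond is vehicle mouse 1 at the end of treatment. For Cd68, C1qb, Hmox1 and Vsig4 the vehicle mice at the end lie above all other mice, while Lcp1 and Laptm5 do not follow this pattern.

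The difference between the testosterone effects at the 2 times, withdrawal minus end, was tested directly, and by limma 0 of 32 markers were called, where 2.19% of all genes were, 0.79% as higher and 1.4% as lower. At an unadjusted p under 0.05 there were 12, all with a positive difference. The share of all genes at that unadjusted threshold is not given here. Of the 32 estimates 29 lay above 0, with a median of 0.42 (all genes -0.066). All estimates rest on the same mice, and most markers follow each other, so these counts are not separate support. The lowest adjusted p-values were those of Fcgr2b (0.53 ± 0.16, 0.0831), C1qb (1.04 ± 0.32, 0.0907) and Cybb (1.20 ± 0.38, 0.0996, limma). A dimmer probe set of Fcgr2b passed in the fit of every probe set (0.89, adjusted p = 0.0416, limma). Its other dimmer ones did not, at 0.376 (adjusted p = 0.282) and 0.874 (adjusted p = 0.0967, limma). The dimmer probe sets of C1qb read -0.029 (adjusted p = 0.966) and 0.265 (adjusted p = 0.598, limma), so its estimate rests on which probe set is read. Without vehicle mouse 1 of the end, 0 were called by limma, the median was 0.28, and the adjusted p-values of Fcgr2b, C1qb and Cybb were 0.117, 0.165 and 0.173 (limma). With the actin ratio in the fit 0 were called by limma, 0 had an unadjusted p under 0.05, the median was 0.074 and 13 of the 32 estimates lay below 0. Leaving out vehicle mouse 1 of the withdrawal time gave 7 calls, where 1.77% of all genes were called higher. Leaving out testosterone mouse 1 of that time gave 2, where 2.44% were, and leaving out vehicle mouse 3 of the end gave 1, where 1.5% were. With array weights 6 were called, beside 3.45% of all genes. A change at the end that was not also seen after withdrawal is thus not shown, for any marker as fitted here, to differ between the times.

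The vehicle mice themselves differed between the times. Of 32 markers 20 were lower in vehicle mice after withdrawal than at the end, 0 were higher and 12 were not called, where 6.83% of all genes were called lower. The median log2 change was -0.73 (all genes 0.056). With Fcgr1 set aside, 19 of 31 were lower. The groups did not overlap for 20 markers, as for 13.5% of all genes in that direction. This comparison and the testosterone comparison at the end share the 3 vehicle mice of the end, so the values are set side by side and not as separate support. Age and time since the last injection differ together between the times and cannot be told apart.

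Of the 9 receptors 6 were called lower, all of particle uptake or Kupffer cell identity. Marco had the largest change of the list, with 16.5 ± 8.58 in vehicle mice after withdrawal and 113 ± 69.1 at the end (SD, n = 3 each; -2.79 ± 0.54, adjusted p = 0.00327, limma). Vsig4 averaged 287 ± 136 after withdrawal and 591 ± 109 at the end (-1.13 ± 0.24, adjusted p = 0.00665, limma). Cd5l averaged 389 ± 129 after withdrawal and 808 ± 172 at the end (-1.08 ± 0.20, adjusted p = 0.00277, limma). In these 3 the vehicle mice of the times did not overlap, though for Vsig4 the nearest mice read 437 after withdrawal and 469 at the end. Clec4f (-0.95 ± 0.19), Cd163 (-0.88 ± 0.17) and Msr1 (-0.66 ± 0.19) also fell, whereas Mrc1 (-0.38 ± 0.15), Adgre1 (-0.63 ± 0.26) and Cd14 (-0.47 ± 0.21) were not called. Clec4f, Cd5l, Cd163, Marco and Msr1 were called here and not between treatments at the end.

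All 3 C1q chains and all 5 Fc receptor and adaptor genes fell between the times in vehicle mice. Of these, Fcgr1 passed the signal filter only through the 3 vehicle arrays of the end. C1qb averaged 207 ± 81.1 after withdrawal and 481 ± 116 at the end (-1.26 ± 0.23, adjusted p = 0.00208), and Fcgr2b averaged 333 ± 56.5 after withdrawal and 518 ± 25.7 at the end (-0.65 ± 0.11, adjusted p = 0.0016, limma). For Fcgr2b every probe set fitted was called lower in this comparison. The other chains changed by -0.79 ± 0.20 (C1qa) and -1.03 ± 0.22 (C1qc), and Fcgr3, Tyrobp, Fcgr1 and Fcer1g by -0.93, -1.05, -0.95 and -0.59. Of the digestive and oxidase genes, Cybb (-1.38 ± 0.27), Lyz2 (-1.16 ± 0.20) and Cd68 (-1.12 ± 0.20) fell, while Cyba (-0.67 ± 0.24), Slc11a1 (-0.58 ± 0.23), Ctss (-0.42 ± 0.18) and Mpeg1 (-0.27 ± 0.15) were not called. Laptm5 was the only marker with a positive estimate (0.26 ± 0.27, not called). Aif1 (-0.81 ± 0.25), Lcp1 (-0.55 ± 0.14) and Hmox1 (-0.96 ± 0.23) fell, and Csf1r (-0.47 ± 0.16), Ptprc (-0.23 ± 0.17), Cd52 (-0.36 ± 0.18) and Coro1a (-0.26 ± 0.22) were not called. With every probe set fitted, a dimmer one of Csf1r was called (-0.94, adjusted p = 0.0123, limma) and another was not (-0.40). A dimmer probe set of Coro1a had the opposite sign (0.73) and was not called.

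Without vehicle mouse 1 of the end, 11 markers were lower in vehicle mice after withdrawal, where 4.09% of all genes were, with a median of -0.65. They were Cd163, Cd5l, Clec4f, Marco, Vsig4, C1qb, C1qc, Fcgr2b, Cd68, Cybb and Lyz2. Vehicle mouse 2 of the withdrawal time had the lowest signal of all 12 mice for 17 markers, and 11 were called without it (3.35% of all genes). With both of these mice left out, an alternative chosen after the data were seen, 5 were called (1.82% of all genes) and the median was -0.49. Without vehicle mouse 3 of the withdrawal time 13 were called (3.24% of all genes), and with no filter on low signals 9 (2.38%). In the fit with the actin ratio 3 were called, Cd163, Marco and Lyz2, where 1.29% of all genes were called lower. The actin ratio averaged 1.77 in vehicle mice after withdrawal and 1.52 at the end, and the ranges overlapped. The pyruvate carboxylase ratio averaged 14.1 ± 4.42 after withdrawal and 6.06 ± 1.35 at the end (SD, n = 3 each), without overlap (exact permutation p = 0.1, the smallest possible). The part of RNA quality in the marker values was not tested with this second ratio.

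The lists of other cell types were also compared between the times in vehicle mice, where 11% of all genes were called higher and 6.83% lower. Of 12 stellate cell and matrix genes 11 had estimates above 0, with a median of 0.42 (all genes 0.056), and Reln (0.41), Pdgfrb (1.20) and Ecm1 (0.42) were called higher. This list summed to 2828 to 3052 after withdrawal and 2221 to 2644 at the end. The B cell list summed to 179.8 to 370.5 after withdrawal and 120.0 to 145 at the end, and Ighm, the IgM heavy chain, was called higher (1.18 ± 0.31, adjusted p = 0.0174, limma). Neither sum overlapped between the times. Of 18 endothelial genes Stab2 (-0.35), Clec4g (-0.36) and Oit3 (-0.76) were called lower and 0 higher, and the sums overlapped. The part of these cells in the marker values was not tested.

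In testosterone mice 3 markers were lower after withdrawal than at the end, 0 were higher and 29 were not called, where 5.31% of all genes were called lower and 5.57% higher. They were Cd14 (14.8 ± 3.10 after withdrawal and 23.96 ± 0.944 at the end, -0.71 ± 0.21, adjusted p = 0.0381), Cd163 (46.6 ± 7.82 after withdrawal and 72.5 ± 6.51 at the end, -0.65 ± 0.17, adjusted p = 0.027) and Ctss (192 ± 17.1 after withdrawal and 306 ± 49.04 at the end, -0.66 ± 0.18, adjusted p = 0.0271, limma; SD, n = 3 each). All mice after withdrawal lay below all mice of the end for 13 of the 32 markers, as for 16.1% of all genes, and 0 markers lay wholly above them, as 15% of all genes did. The median log2 change was -0.21. Each of these calls was lost without testosterone mouse 2 or mouse 3 of the withdrawal time. Without testosterone mouse 1 of the end Ctss alone was called, without mouse 2 Cd163 alone, and without mouse 3 Aif1 alone, which is not among the 3.

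**Figure D4:**
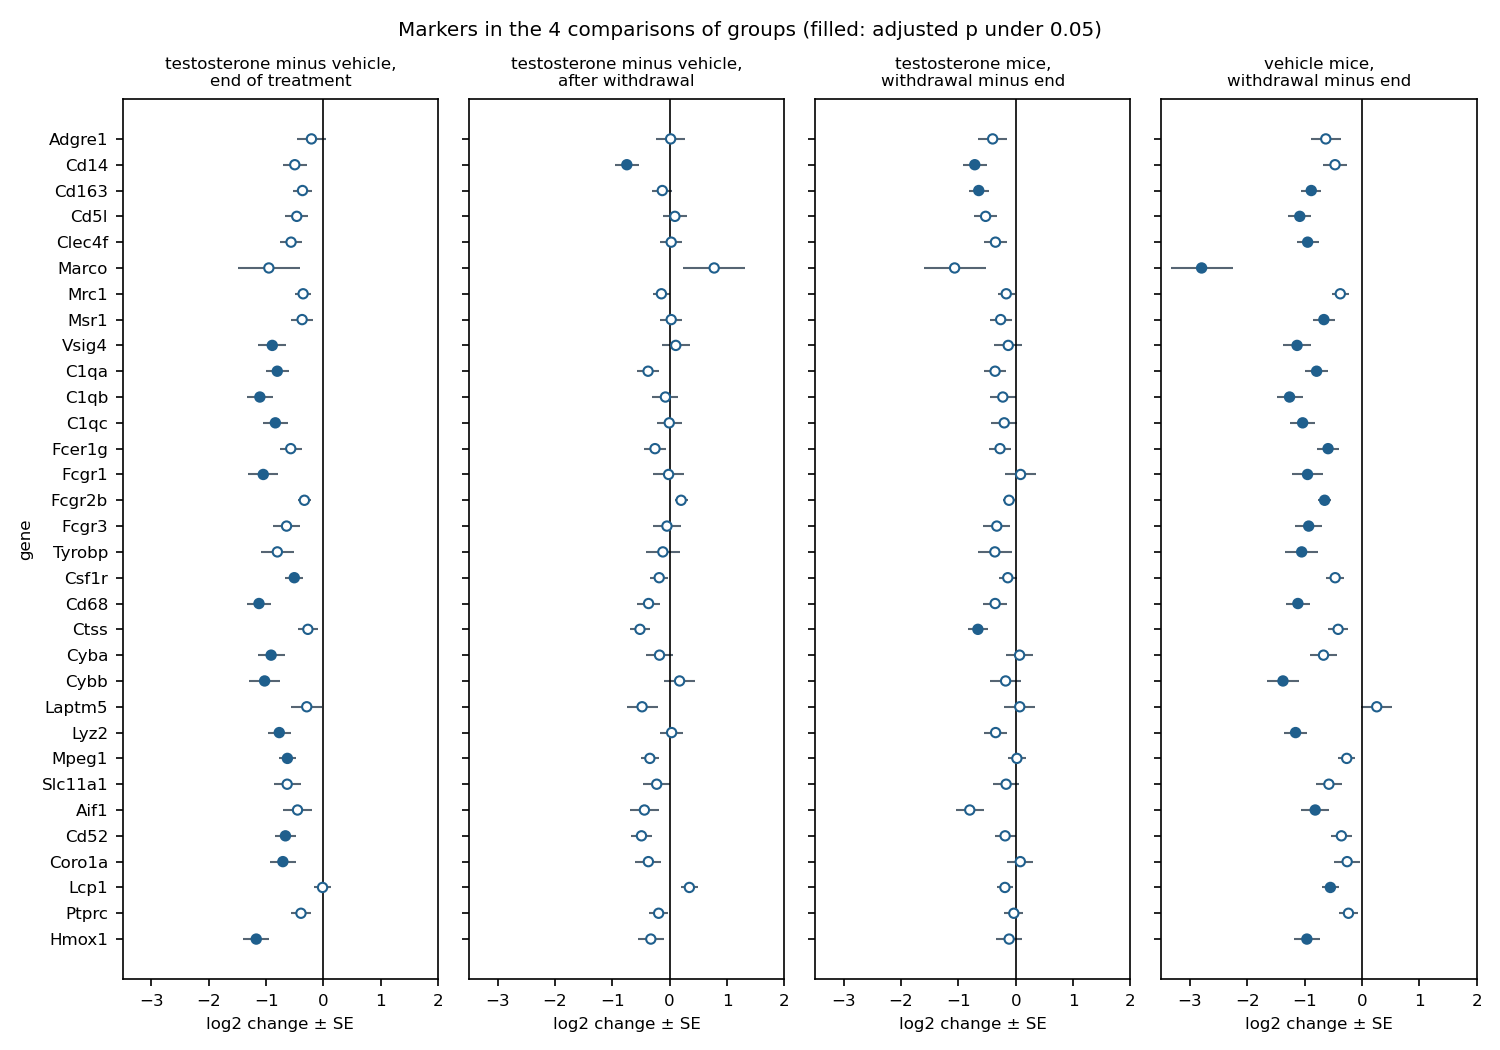
Log2 change ± standard error of each marker in 4 comparisons of groups, from left to right testosterone minus vehicle at the end, testosterone minus vehicle after withdrawal, withdrawal minus end in testosterone mice and withdrawal minus end in vehicle mice. Filled points have a limma adjusted p under 0.05, at 14, 1, 3 and 20 of 32 markers; the first and last comparisons share the vehicle mice of the end.

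Testosterone mice at the end and vehicle mice after withdrawal, which differ in both treatment and time and were not tested against each other, overlapped for 27 of the 32 markers. All testosterone mice of the end lay above all vehicle mice of the withdrawal time for Cd163, Marco, Fcgr2b and Lcp1, and below them for Laptm5, where 19.5% and 22.1% of all genes were apart in those directions. Summed over the 32 markers, the signal was 5018 to 5896 in testosterone mice at the end and 6661 to 9745 in vehicle mice at the end. After withdrawal it was 4288 to 4654 in testosterone mice and 3665 to 6117 in vehicle mice. Of the 4 groups, only the vehicle mice of the end lay wholly above the rest in this sum.

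The markers differed in how closely they followed each other over the 12 arrays. As a description over arrays that share the group pattern and mouse 1, C1qa followed the mean of the other markers most closely (r = 0.982), then Clec4f (0.962), C1qc (0.962) and C1qb (0.961). Hmox1 (0.951) and Vsig4 (0.950) came next. Cd14 (0.698), Lcp1 (0.427) and Laptm5 (0.272) followed it least.

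The 10 other tested genes with the highest r to the mean standardised level of the markers, over 12 arrays, were Itgb2 (0.982), Cfp (0.979), Clec1b (0.973), Folr2 (0.966), Lgmn (0.962), Srgn (0.955), Adamdec1 (0.950), Rac2 (0.944), Fcna (0.944) and Clec4g (0.940). Itgb2 encodes the beta chain of the leukocyte integrins and at the end averaged 42.3 ± 11.001 with testosterone and 76.6 ± 23.7 with vehicle (SD, n = 3 each). Cfp, properdin, which stabilises the alternative complement convertase, averaged 135 ± 17.4 in testosterone mice and 261 ± 61.8 in vehicle mice. Folr2, a folate receptor of tissue macrophages, averaged 58.2 ± 9.71 in testosterone mice and 122 ± 17.2 in vehicle mice. Fcna, the secreted lectin ficolin A, averaged 231 ± 35.7 in testosterone mice and 380.4 ± 41.6 in vehicle mice. These genes were picked for following the markers on the same arrays, so their levels are a description.

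A wider list of myeloid genes was tested beside the markers. Of 23 tested of 37 in a list of other myeloid and leukocyte genes, 10 fell and 0 rose at the end (median -0.55). Of all genes 8.01% were called lower there and 9.42% higher. The largest were Folr2 (-1.07 ± 0.23, adjusted p = 0.0057), Axl, a receptor for dying cells (-1.03 ± 0.21, adjusted p = 0.00444), and Cfp (-0.93 ± 0.23, adjusted p = 0.0135, limma). After withdrawal 0 of the 23 were called by limma, with 1 at an unadjusted p under 0.05. Of all genes 3.26% were called lower there and 2.74% higher. In vehicle mice 11 of the 23 were lower after withdrawal than at the end, where 6.83% of all genes were. At the end this list summed to 1181 to 1469 in testosterone mice, against 1596 to 2410.5 in vehicle mice. Of 9 macrophage cytokine and chemokine genes tested, Il1b (-1.19 ± 0.26, adjusted p = 0.00581) and the chemokine Ccl9 (-0.79 ± 0.10, adjusted p = 7.93e-05, limma) were lower at the end and 0 were higher. Ccl9 was also lower with testosterone after withdrawal (-0.36 ± 0.10, adjusted p = 0.0373, limma), and Il1b was the 1 gene of this list called for the difference between the times.

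Genes that act with the markers moved unevenly, where 8.01% of all genes were called lower at the end and 9.42% higher. Of 9 macrophage transcription factors tested, 2 fell at the end, Id1 (30.9 ± 3.38 in testosterone mice and 73.2 ± 11.3 in vehicle mice, -1.24 ± 0.21, adjusted p = 0.00125) and the liver X receptor Nr1h3 (156 ± 18.8 in testosterone mice and 202 ± 10.03 in vehicle mice, -0.38 ± 0.10, adjusted p = 0.0214, limma). Cebpb (0.71 ± 0.12) and the Hmox1 repressor Bach1 (364 ± 44.5 in testosterone mice and 221 ± 9.97 in vehicle mice, 0.71 ± 0.12, adjusted p = 0.00132, limma) rose. Hepatocytes express these 4 genes as well. Spi1, which encodes PU.1, was not called (-0.64 ± 0.32, adjusted p = 0.188, limma). Of 7 signalling genes tested, Csf1, a ligand of the CSF1 receptor, was lower (24.5 ± 8.996 in testosterone mice and 50.9 ± 12.7 in vehicle mice, -1.11 ± 0.26, adjusted p = 0.00897, limma) and 0 were higher. Rac2, the small GTPase that switches on the phagocyte oxidase, was the 1 called of 2 oxidase partners (-1.04 ± 0.26, adjusted p = 0.0128, limma).

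Of 18 other lysosomal genes 6 were lower and 1 higher at the end, where 8.01% and 9.42% of all genes were. The protease Ctsc, which activates granule proteases, had the largest change (668 ± 112 in testosterone mice and 1431 ± 164 in vehicle mice, -1.11 ± 0.12, adjusted p = 2.76e-05, limma), and it was also lower after withdrawal (-0.68 ± 0.12, adjusted p = 0.00282, limma). Lgmn (-0.64 ± 0.16) and Grn, progranulin (-0.49 ± 0.13), followed, and Lamp1, a main protein of the lysosomal membrane, was higher (0.34 ± 0.081). In this list the median was -0.20. Of 5 MHC class II genes tested, 0 were called by limma in any of the 5 comparisons, with 0 to 3 of them at an unadjusted p under 0.05. Of 13 genes of the NRF2 response and heme handling, to which Hmox1 is related in function, Nqo1 was lower (-0.75 ± 0.17) and Gclc higher (0.69 ± 0.14) at the end. Nqo1 was also lower with testosterone after withdrawal (-0.72 ± 0.17), as were Slc40a1, the iron exporter ferroportin (-0.51 ± 0.12), and Nfe2l2, which encodes NRF2 (-0.36 ± 0.091). Tfrc, the transferrin receptor, was higher (0.84 ± 0.19). After withdrawal 3.26% of all genes were called lower and 2.74% higher.

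Markers of other cells in the liver were measured beside these results. Of all genes 8.01% were called lower at the end and 9.42% higher, and after withdrawal 3.26% lower and 2.74% higher. Of the monocyte list 1 of 5 genes with a probe set was tested, Plac8, which was lower at the end (-0.60 ± 0.15, adjusted p = 0.0138) and after withdrawal (-0.68 ± 0.15, adjusted p = 0.0124, limma). The summed monocyte signal at the end was 117 to 144 in testosterone mice and 168 to 212 in vehicle mice. Of 11 neutrophil genes 2 were tested and 0 called by limma, with 0 at an unadjusted p under 0.05, and the sum was 57.8 to 204 in testosterone mice and 78.8 to 271 in vehicle mice. Of 11 T and NK cell genes 0 passed the filter, Cd4 lay at the floor in all 12 mice, and the sum was 52.96 to 65.5 in testosterone mice and 62.8 to 89.5 in vehicle mice. Of 6 B cell genes 2 were tested and 0 called at the end, by limma, with 1 at an unadjusted p under 0.05. Their sum was 77.3 to 86.2 in testosterone mice and 120.0 to 145 in vehicle mice, without overlap. Of 7 dendritic cell genes 1 was tested and not called, Ccr7 lay at the floor in all mice, and the sum was 34.3 to 48.4 in testosterone mice and 39.7 to 74.9 in vehicle mice.

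The lists that follow stand beside 8.01% of all genes called lower at the end and 9.42% higher. Of 18 endothelial genes tested 3 were lower at the end, the sinusoidal scavenger receptor Stab2 (-0.38 ± 0.11), Oit3 (-0.71 ± 0.18) and Egfl7 (-0.48 ± 0.16), and Bmp2 was higher (0.64 ± 0.21). The endothelial sum was 1601 to 1749 in testosterone mice and 1754 to 2149 in vehicle mice, with vehicle mouse 1 highest. Of 12 stellate cell and matrix genes tested, Hgf (-0.92 ± 0.23) and Ecm1 (-0.42 ± 0.088) were lower and Pdgfrb higher (0.70 ± 0.23), with a sum of 2017 to 2213 in testosterone mice and 2221 to 2644 in vehicle mice. Of 11 hepatocyte genes 1 was lower, Ahsg (-0.24 ± 0.055), and the sum was 42962 to 43987 in testosterone mice and 43906 to 44935 in vehicle mice. Alas2, which starts heme synthesis in red cell precursors and was the 1 red cell gene tested, was higher with testosterone at the end (1.75 ± 0.24) and after withdrawal (2.01 ± 0.24). The part of monocytes, lymphocytes, endothelial cells or red cells in the marker values was not tested.

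**Figure D5:**
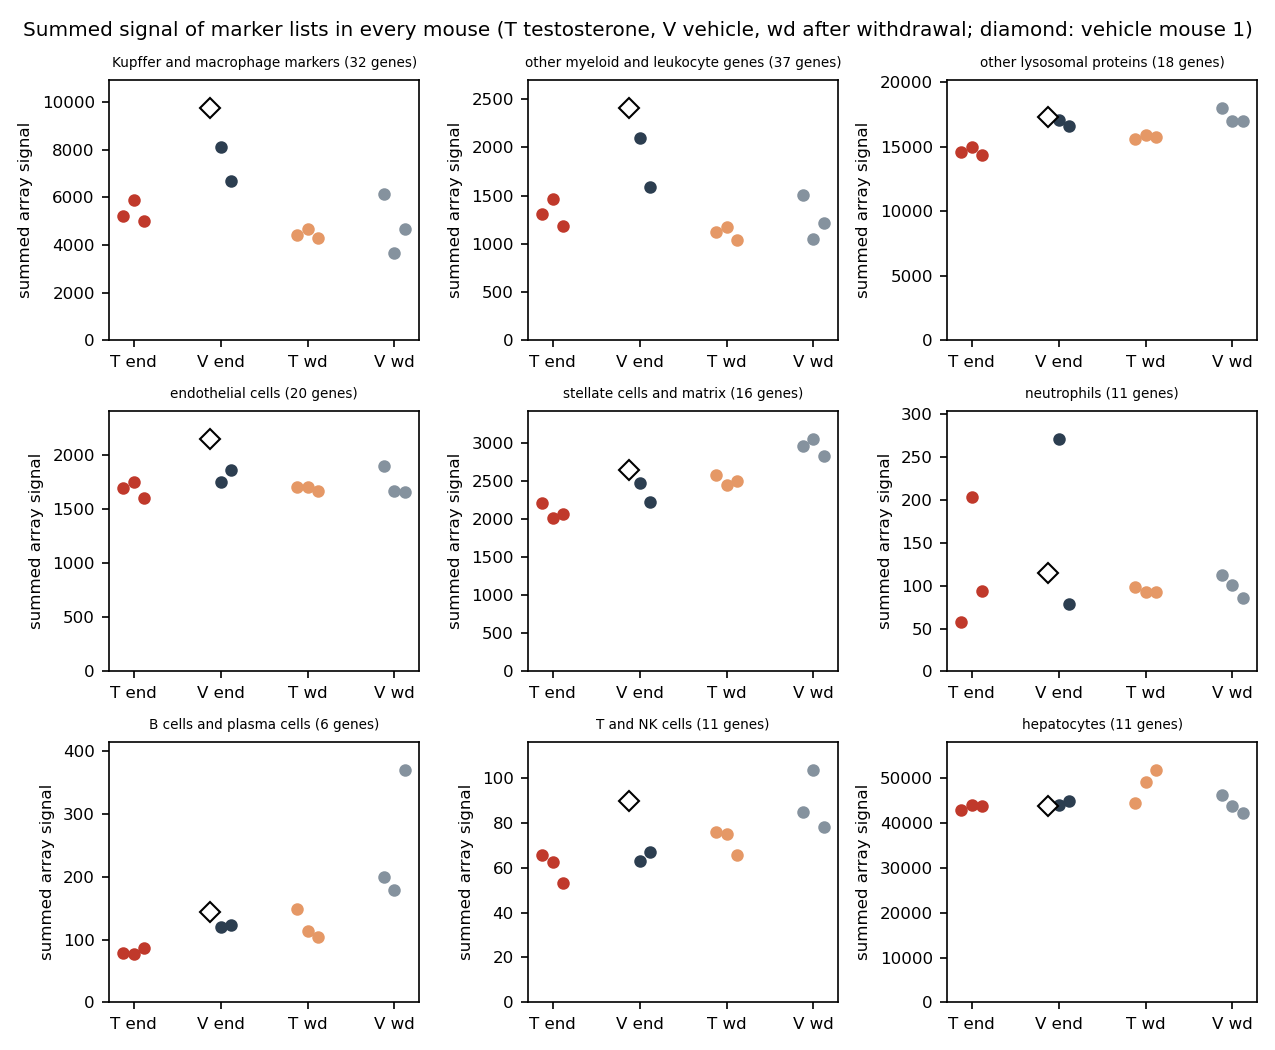
Summed array signal of 9 gene lists in every mouse (points), including genes under the signal filter; T is testosterone, V vehicle, wd after withdrawal, and the diamond is vehicle mouse 1 at the end of treatment. All vehicle mice of the end lie above all testosterone mice of the end in 6 of the 9 lists: the markers, other myeloid, lysosomal, endothelial, stellate and B cell genes. The neutrophil, T and NK cell and hepatocyte sums of these groups overlap.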

How the data were processed

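Total RNA (5 µg per liver) was labelled with a one-cycle Affymetrix kit, per the labels' protocols. The authors deposited linear intensity signals per probe set, made with GCOS and MAS5 per the submitters' processing notes; the versions are not named there. The deposited values share a common 2% trimmed mean per array, so they were not rescaled. Of 22690 probe sets, 20380 have 1 gene symbol in the platform annotation, 691 several and 1555 none, and 64 are controls; only the first class was named. Signals under the 25th percentile (4.84) were raised to it and log2 was taken. Each gene was read by its brightest probe set and tested where it exceeded the array median on at least 3 of 12 arrays. Groups followed the sample titles, with 1 array per mouse. All 12 arrays were fitted with 4 group means in limma 3.58.1 (R 4.3.3; lmFit, eBayes with trend, two-sided, Benjamini-Hochberg over 7217 genes). The fit was tested on simulated data with independent noise for each gene, which hold no shift shared by the markers of a mouse. The actin ratio was compared by an exact permutation test over mice. No 2 arrays held identical values. Detection calls were not used here, and the number of arrays limits the precision.

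The markers, the other gene lists and the tests were chosen with earlier results of these data known. All markers are named; of each other list, up to 3 called genes per comparison by size, plus those called against the list's direction, and the 10 genes most like the markers. Alternatives changed the floor, filter, scaling, probe set, variance model, threshold and samples, or added the actin ratio or the replicate number as a block. Same-numbered mice of different groups deviated with correlations of -0.194 to 0.00565, so the number was not taken to pair mice.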

Additional observations from a re-analysis of the deposited data

How the results depend on the processing

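The counts of called markers were 14 at the end, 1 after withdrawal, 0 for the difference of the testosterone effects, 20 between the times in vehicle mice and 3 in testosterone mice. Without a filter on low signals, where more genes are tested, they were 4, 0 and 9 for the end, the withdrawal and the vehicle comparison and 0 in testosterone mice. With the actin ratio in the fit the marker counts were 0, 0, 3 and 0 in the same order. There 0.624%, 2.01%, 1.29% and 0.818% of all genes were called lower. With this ratio Cybb changed sign at the end to 0.127 (adjusted p = 0.943, limma). The call after withdrawal was also lost, giving 0, with log2(signal + 16), median centring, quantile normalization, every probe set tested and only the 2 groups fitted. In these fits 2.31% to 3.46% of all genes or probe sets were called lower. The difference gave 6 calls with array weights, where 3.45% of all genes were called higher. It gave 3 at an adjusted p under 0.1, where 2.62% were. Without vehicle mouse 1 of the end and vehicle mouse 2 of the withdrawal time, chosen after seeing the data, the end gave 8, the withdrawal 2 and the vehicle comparison 5. The shares of all genes called lower without these mice were 4.77%, 1.82% and 1.82%. Over the fits leaving out 1 mouse each, the counts ranged over 3 to 19 at the end, 0 to 2 after withdrawal, 0 to 7 for the difference, 11 to 25 in vehicle mice and 0 to 4 in testosterone mice. Of all genes 5.07% to 8.48% were called lower at the end, 3.24% to 7.34% in vehicle mice and 2.85% to 6.03% in testosterone mice. After withdrawal 3.27% to 8.78% were called in either direction, and for the difference 0.152% to 2.44% were called higher. The cause was not tested. With the replicate number as a block, the marker counts were 13, 0, 0, 21 and 4 in the order of the first sentence. Beside them 6.75%, 2.73%, 5.27% and 4.1% of all genes were called lower, and 0.333% higher for the difference. In 0 of 24 matches between groups was a mouse closest to the one with its own number. Of 4438 single-gene values, 4021 kept direction and side of the threshold, 192 lost the call and 102 gained one with direction kept, and 123 changed sign, of which 122 were not called either way. At the end, Cd68 and Hmox1 were still called under 26 of 27 alternatives and Coro1a under 15.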

Other observations

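Id1, an inhibitor of helix-loop-helix factors, was lower with testosterone also after withdrawal (-1.13 ± 0.21, adjusted p = 0.00465, limma). For Cebpb (-0.79 ± 0.17) and Bach1 (-0.75 ± 0.17) the difference between the testosterone effects, withdrawal minus end, was called and negative (adjusted p = 0.0305 and 0.0415, limma), and so was that of Bmp2, an iron-regulating signal of sinusoidal endothelium (-1.24 ± 0.29, adjusted p = 0.0418, limma). After withdrawal Ighm, the IgM heavy chain of B cells, was lower with testosterone (-1.33 ± 0.31, adjusted p = 0.0167, limma), and the apolipoprotein genes Apoa1 (0.25 ± 0.065) and Apob (0.31 ± 0.079) were higher (adjusted p = 0.0343 and 0.0311, limma).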
